A study of Rattus norvegicus with 12 samples.

Results

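The genes described here are 48 gene symbols of the cell cycle, 29 that act in mitosis and 19 that act in DNA replication and entry into it, followed through all 12 rat sciatic nerve samples of the series. They were taken as the rows of the deposited count table whose gene name is one of these symbols. This gave 49 rows of 30562, because Cdc45 names 2 rows, and all 49 were among the 15712 rows with enough counts to be tested. The study sequenced poly(A) RNA from nerve stumps in 4 groups of 3 samples, in order to look into pain relief by a truncated cone-shaped conduit. The groups are called by their labels: Control, CC4:2 and CC4:4 (conduits of different gradient), and VP4:2 (loaded with the compound spelled vertaporfin in the series text, verteporfin, which blocks binding of the coactivator YAP to TEAD factors). The labels do not give what the Control stumps received, the time after surgery, the age, sex or strain of the rats, or what the numbers 4:2 and 4:4 stand for. They do not say either whether the 3 samples of a group came from separate animals, so p-values reflect variation among the 3 samples of a group, part of which may be technical.

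A dividing cell first commits to division through cyclin E and the E2F factors, then loads the MCM helicase on its origins and copies its DNA, and finally builds a spindle and separates its chromosomes under the control of cyclin B and the kinase encoded by Cdk1. Transcripts of most of these genes rise and fall with the cycle and are low in resting cells. In an injured peripheral nerve, Schwann cells, fibroblasts, endothelial cells and immune cells can all divide. Whole tissue was sequenced here, so fewer dividing cells and less of a transcript per cell cannot be told apart.

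Levels are given as CPM, the counts of a gene relative to its sample's total scaled with TMM factors, in replicates 1 to 3 of a group in that order, and are compared between samples, never between genes. Log2 fold changes carry the standard error (SE) worked back from edgeR's quasi-likelihood test with 3 samples per group. A gene is called higher or lower at a Benjamini-Hochberg adjusted p under 0.05 over all 15712 genes. Totals ran from 13763067 to 18632280 counts per sample. The nerve label was checked against 10 myelin genes. All 10 were detected, and their summed level was 14800 to 38700 CPM in CC4:2, 13500 to 20200 in VP4:2 and 2880 to 3610 in CC4:4, but 490 in Control replicate 1 against 4980 and 2920 in replicates 2 and 3. That library also stood apart in several values below.

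The promoters are shown first because the mitosis and replication genes carry different short motifs around their start sites. In textbook accounts the CHR element, often with CCAAT boxes nearby, is found in genes of late cell cycle expression, and E2F sites in genes of the start of DNA replication. RefSeq (build GRCr8) start sites were at hand for 39 of the 48 symbols, 25 mitosis and 14 replication genes. Windows from 250 bases before to 50 bases after the start were searched on both strands for TTTGAA and TTCGAA (the CHR and its variant), for CCAAT, and for TTTNNCGC (an E2F-type site). Below are the 250 bases before the start of 3 mitosis genes and 4 replication genes, 5′ to 3′ on the strand of the gene, with every match in capitals. They were chosen to set genes that fell in CC4:2 (Prc1, Cdk1, Cdc20, Mcm5 and Mcm6) beside replication genes that did not fall (Mcm7 and Tyms).
Prc1, chr1:143659231-143659480, plus strand: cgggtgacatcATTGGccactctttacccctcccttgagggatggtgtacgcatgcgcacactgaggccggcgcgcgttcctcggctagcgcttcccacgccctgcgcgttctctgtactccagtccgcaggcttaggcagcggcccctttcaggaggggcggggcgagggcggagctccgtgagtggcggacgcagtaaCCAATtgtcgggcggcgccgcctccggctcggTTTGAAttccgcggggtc
Cdk1, chr20:19265043-19265292, plus strand: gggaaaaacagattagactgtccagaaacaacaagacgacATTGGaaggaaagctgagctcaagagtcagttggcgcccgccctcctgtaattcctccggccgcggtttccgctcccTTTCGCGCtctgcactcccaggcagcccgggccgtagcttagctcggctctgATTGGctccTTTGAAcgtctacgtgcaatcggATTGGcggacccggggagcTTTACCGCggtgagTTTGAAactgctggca
Cdc20, chr5:137255800-137256049, minus strand: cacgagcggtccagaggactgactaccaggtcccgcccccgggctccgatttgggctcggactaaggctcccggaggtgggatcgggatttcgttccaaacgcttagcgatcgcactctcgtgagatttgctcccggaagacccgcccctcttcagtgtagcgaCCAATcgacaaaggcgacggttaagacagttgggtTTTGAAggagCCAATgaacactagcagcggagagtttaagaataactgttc
Mcm5, chr19:13488563-13488812, plus strand: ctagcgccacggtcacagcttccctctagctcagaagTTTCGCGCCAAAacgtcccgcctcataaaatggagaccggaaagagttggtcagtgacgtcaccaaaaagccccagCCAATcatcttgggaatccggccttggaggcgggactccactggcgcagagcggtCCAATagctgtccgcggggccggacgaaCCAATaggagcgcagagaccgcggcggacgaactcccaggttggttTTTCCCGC
Mcm6, chr13:42404353-42404602, minus strand: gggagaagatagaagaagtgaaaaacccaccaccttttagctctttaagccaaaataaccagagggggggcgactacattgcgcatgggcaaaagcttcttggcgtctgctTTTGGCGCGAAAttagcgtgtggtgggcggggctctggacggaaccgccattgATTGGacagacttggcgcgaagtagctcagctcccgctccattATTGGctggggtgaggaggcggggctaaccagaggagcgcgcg
Mcm7, chr12:22163179-22163428, minus strand: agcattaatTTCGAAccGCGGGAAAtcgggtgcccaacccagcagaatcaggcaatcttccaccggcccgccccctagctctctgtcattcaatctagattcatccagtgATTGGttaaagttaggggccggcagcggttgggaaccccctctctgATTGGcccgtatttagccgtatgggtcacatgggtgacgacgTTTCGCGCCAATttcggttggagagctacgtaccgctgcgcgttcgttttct
Tyms, chr9:120776084-120776333, minus strand: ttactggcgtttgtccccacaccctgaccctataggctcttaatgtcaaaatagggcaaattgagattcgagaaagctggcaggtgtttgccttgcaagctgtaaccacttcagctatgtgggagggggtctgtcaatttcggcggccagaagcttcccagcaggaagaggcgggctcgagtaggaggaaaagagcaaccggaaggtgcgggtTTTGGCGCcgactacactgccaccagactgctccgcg
Prc1 has 1 CHR, 18 bases before its start, and Cdk1 has a pair of them, 72 and 16 bases before its start, with CCAAT boxes 81 and 49 bases before the start on either side of the first. In Mcm5 and Mcm6, 2 E2F-type matches on opposite strands overlap and read as 1 run of capitals, 213 and 139 bases before the start. In Mcm7 the E2F-type match that begins 52 bases before the start overlaps a CCAAT box. Mcm7 carries E2F-type and CCAAT matches, as Mcm5 does, and also a variant of the CHR 241 bases before its start, and Tyms carries an E2F-type match 37 bases before its start.

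Over the whole window, TTTGAA was present in 18 of 25 mitosis promoters (72%) and in 1 of 14 replication promoters (7.14%), against 18.1% of all 27455 promoters of the table. The E2F-type letters were present in 7 of 14 replication promoters (50%) and in 3 of 25 mitosis promoters (12%), against 5.19% of all. CCAAT did not separate the classes, with 72% of mitosis and 71.4% of replication promoters against 37.7% of all. Either CHR form together with CCAAT was found in 56% of mitosis, 14.3% of replication and 7.83% of all promoters. The position of the start site matters for these shares, since with only the 250 bases before it the TTTGAA share of the mitosis genes was 44% (16% of all promoters). The E2F-type share of the replication genes was then 35.7%, against 12% of the mitosis genes and 4.35% of all promoters. Of the genes with a promoter, 3 mitosis genes (Bub1, Aurka and Kif2c) and 1 replication gene (Ccne1) had none of these letters. Kif2c and Ccne1 were among the genes with the largest falls below, and a link between motifs and falls was not tested. A match describes the letters of the window and is not evidence of binding.

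**Figure D1:**
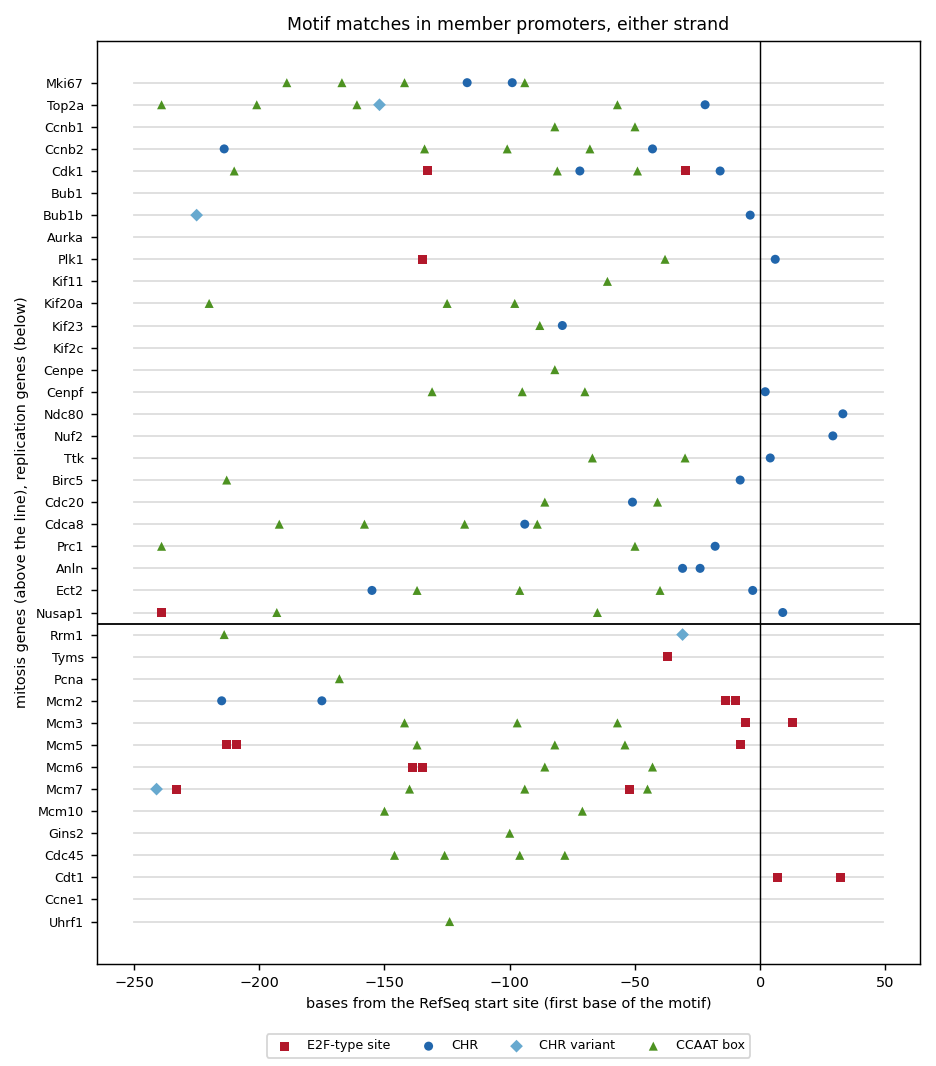
Motif matches in the 39 promoters, as bases from the RefSeq start site (x axis) for each gene (rows, mitosis above the line and replication below), with a symbol for each of the 4 motifs. CHR matches lie in 18 of 25 mitosis rows and 1 of 14 replication rows, and E2F-type matches in 3 and 7 rows.

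Across the 12 samples most mitosis genes were lowest in CC4:2, next in VP4:2, and highest in Control and CC4:4. CC4:2 had the lowest group mean of 28 of the 29 mitosis genes and of 15 of the 20 replication rows, and CC4:4 had the highest mean of 28 and 15. The mean log2 CPM over the mitosis genes was 2.04 ± 0.15 in CC4:2, 2.97 ± 0.22 in VP4:2, 3.48 ± 0.39 in Control and 3.80 ± 0.32 in CC4:4 (SD, n = 3). Over the replication rows it was 3.17 ± 0.06, 3.61 ± 0.05, 3.94 ± 0.17 and 4.18 ± 0.28 (SD, n = 3) in the same order. The step from CC4:2 to VP4:2 and from VP4:2 to Control did not overlap between samples in the replication rows, while Control (3.89, 3.80 and 4.13) and CC4:4 (4.19, 4.46 and 3.89) overlapped. For the mitosis genes CC4:2 (2.19, 1.89 and 2.04) lay below all VP4:2 samples (2.97, 2.75 and 3.18), and VP4:2 overlapped Control (3.84, 3.06 and 3.53). Replicate 2 of CC4:4 was the highest sample for 24 of 29 mitosis genes and 15 of 20 replication rows, and Control replicate 1 was the highest for 4 mitosis genes.

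**Figure D2:**
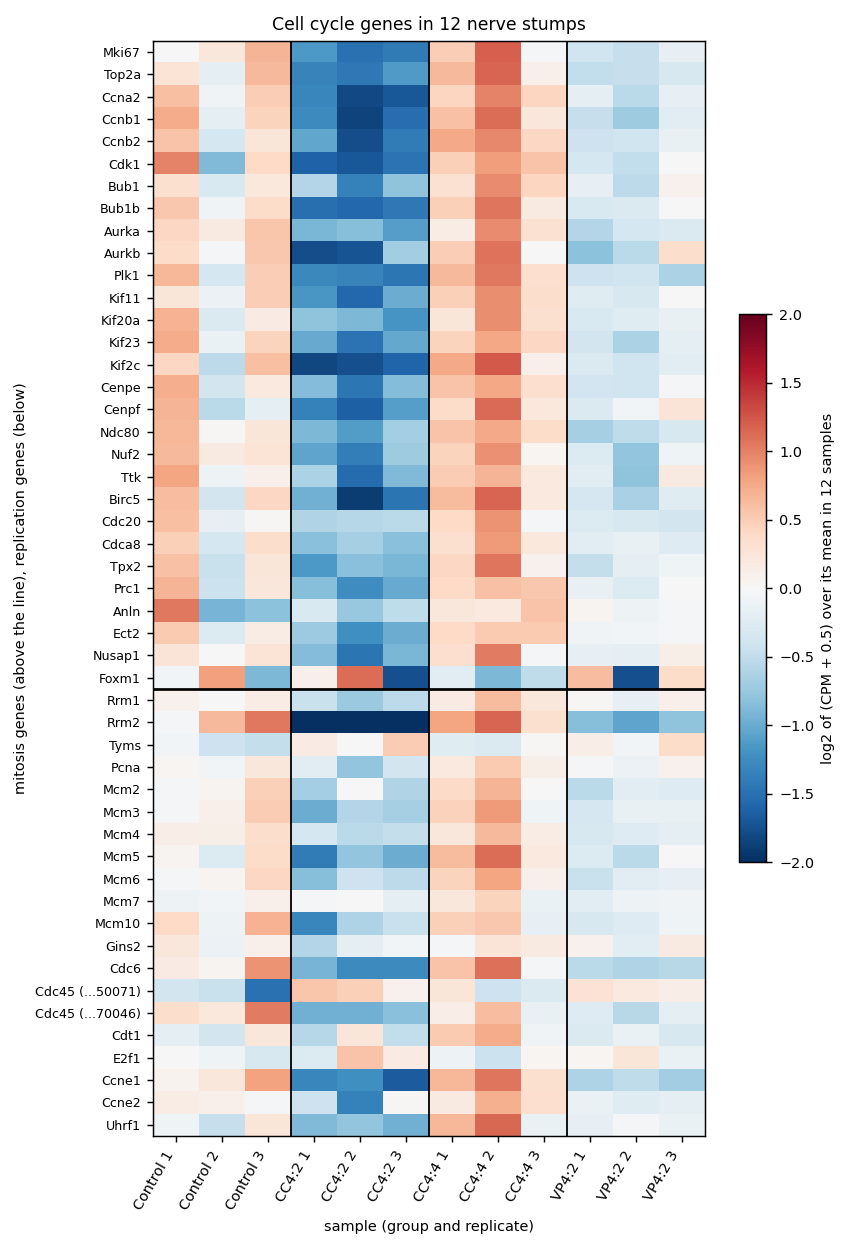
Level of each gene (rows) in each of the 12 samples (columns) as log2 of (CPM + 0.5) over its mean in all samples, with colours capped at 2 in either direction. The 3 CC4:2 columns are blue for most mitosis genes, and CC4:4 replicate 2 is the darkest red for 24 of them, while Foxm1, Tyms, Mcm7, E2f1 and 1 Cdc45 row do not follow.

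The first comparison asked how the CC4:2 conduit differed from Control. Of the 29 mitosis genes 27 fell and none (0) rose, with a median log2 fold change of -1.51, a level 2.85-fold lower. Of the 20 replication rows 12 fell, 2 rose and 6 did not pass the test, with a median of -0.66. These shares of 93.1% and 60% lower stand beside 23.2% of all genes called lower and 20.3% called higher, with a median of -0.05 over all genes. The 27 and 12 rows that fell also lay below Control without overlap, as did 25.8% of all genes. Without Control replicate 1 there were 26 mitosis and 13 replication rows called, and without Control replicate 3 there were 27 and 9.

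Mki67, whose protein coats mitotic chromosomes and is the usual marker of dividing cells, was at 64.5, 75.2 and 103 CPM in Control, 28.5, 22.5 and 23.9 in CC4:2, 90.5, 147 and 63.3 in CC4:4, and 48.3, 46.2 and 57.1 in VP4:2. The CC4:2 samples were the lowest of the 4 groups and did not overlap any other. Its log2 fold change from Control was -1.70 ± 0.28, edgeR adjusted p = 0.00096. Top2a, which untangles replicated DNA, was at 49.8, 36.1 and 64.2 CPM in Control, 15.9, 14.9 and 18.3 in CC4:2, 64.5, 92.4 and 44.0 in CC4:4, and 28.9, 29.7 and 32.7 in VP4:2, again with CC4:2 below every other sample (-1.61 ± 0.27).

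All 6 mitotic cyclins and kinases fell. Cdk1, the kinase that drives entry into mitosis, was at 17.7, 4.45 and 11.6 CPM in Control, 2.49, 2.31 and 2.77 in CC4:2, 12.2, 15.9 and 13.1 in CC4:4, and 6.63, 6.02 and 8.66 in VP4:2. All 3 CC4:2 samples lay within a narrow band below the rest, while Control spread widely with replicate 2 at 4.45 CPM (-2.15 ± 0.40, edgeR adjusted p = 0.0019). Its partner Ccnb1, cyclin B1, was at 22.3, 11.3 and 18.0 CPM in Control, 5.14, 3.27 and 4.23 in CC4:2, 20.0, 29.0 and 15.3 in CC4:4, and 9.37, 7.79 and 11.2 in VP4:2, and CC4:2 did not overlap the rest (-2.03 ± 0.31). Ccna2 fell by 2.09, Plk1 by 1.89, Ccnb2 by 1.72 and Aurka by 1.50 on the log2 scale. Foxm1, the transcription factor that drives many of these genes, could not be read: it was at 1.13, 2.499 and 0.404 CPM in Control, 1.32, 3.16 and 0 in CC4:2, 0.939, 0.407 and 0.684 in CC4:4, and 2.08, 0 and 1.68 in VP4:2, with 0 to 56 counts per sample, and the groups overlapped (0.15 ± 1.27, edgeR adjusted p = 0.94).

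The 4 checkpoint genes fell by unequal amounts. Bub1b, which holds back chromosome separation until the spindle is attached, was at 13.6, 8.67 and 12.03 CPM in Control, 2.91, 2.76 and 3.08 in CC4:2, 12.9, 19.7 and 10.5 in CC4:4, and 7.29, 7.41 and 9.14 in VP4:2. Its CC4:2 values were nearly equal to each other and below all others (-1.97 ± 0.26, edgeR adjusted p = 0.00031). Cdc20, which triggers separation once the checkpoint is satisfied, was at 17.9, 10.4 and 11.8 CPM in Control, 7.47, 7.67 and 7.88 in CC4:2, 15.4, 22.1 and 11.4 in CC4:4, and 9.54, 9.18 and 8.87 in VP4:2, the smallest fall among the called mitosis genes (-0.80 ± 0.26, edgeR adjusted p = 0.026). CC4:2 and Control did not overlap, but the call was lost without Control replicate 1 (-0.53, edgeR adjusted p = 0.10) and without any 1 of the CC4:2 samples. Ttk fell by 1.49 and Bub1 by 1.02 on the log2 scale.

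Of 4 genes of the chromosomal passenger complex, which corrects faulty attachments, 3 fell. Its kinase gene Aurkb was at 10.4, 7.73 and 11.7 CPM in Control, 1.96, 2.03 and 4.70 in CC4:2, 11.3, 17.3 and 7.87 in CC4:4, and 4.22, 5.26 and 10.2 in VP4:2, and CC4:2 replicate 3 was higher than replicates 1 and 2 but still below every Control sample (-1.77 ± 0.45, edgeR adjusted p = 0.0094). Birc5, survivin, fell by 2.03 and Cdca8, borealin, by 1.06 on the log2 scale. Incenp, the scaffold of the complex and not among the 48 symbols, did not pass (-0.35 ± 0.21, edgeR adjusted p = 0.20), and its groups overlapped. Of the spindle genes, Kif11, the motor that pushes the spindle poles apart, was at 15.5, 11.95 and 18.4 CPM in Control, 5.51, 4.06 and 6.27 in CC4:2, 18.3, 25.1 and 16.7 in CC4:4, and 10.9, 10.3 and 13.2 in VP4:2 (-1.53 ± 0.23, edgeR adjusted p = 0.00062). Kif2c, which takes microtubules apart at their ends, had the largest fall of all mitosis genes (-2.31 ± 0.37, edgeR adjusted p = 0.00076), from 6.71 ± 2.62 to 1.34 ± 0.153 CPM (mean ± SD, n = 3). Nusap1 fell by 1.34 and Tpx2 by 1.21.

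All 4 kinetochore genes fell. Cenpf, a protein of the outer kinetochore, was at 24.3, 10.1 and 13.2 CPM in Control, 5.56, 4.46 and 6.68 in CC4:2, 19.4, 33.5 and 17.4 in CC4:4, and 12.2, 14.4 and 18.0 in VP4:2, so that Control replicate 1 was the highest of its group and no CC4:2 sample reached any Control sample (-1.51 ± 0.35, edgeR adjusted p = 0.0062; without Control replicate 1, -1.06, edgeR adjusted p = 0.019). The other kinetochore genes Nuf2, Cenpe and Ndc80 fell by 1.54, 1.36 and 1.34. Of the 5 cytokinesis genes, Kif23, Prc1, Kif20a and Ect2 fell by 1.68, 1.30, 1.27 and 1.25. Anln, anillin, which scaffolds the cleavage furrow, was not called (-0.63 ± 0.45, edgeR adjusted p = 0.28). It was at 29.6, 7.11 and 7.67 CPM in Control, 11.2, 8.06 and 9.66 in CC4:2, 16.4, 16.1 and 20.9 in CC4:4, and 14.5, 12.9 and 13.5 in VP4:2, so that Control replicate 1 was the highest of all 12 samples and the other Control samples were the lowest. Without Control replicate 1 the sign turned, to 0.38 (edgeR adjusted p = 0.10).

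**Figure D3:**
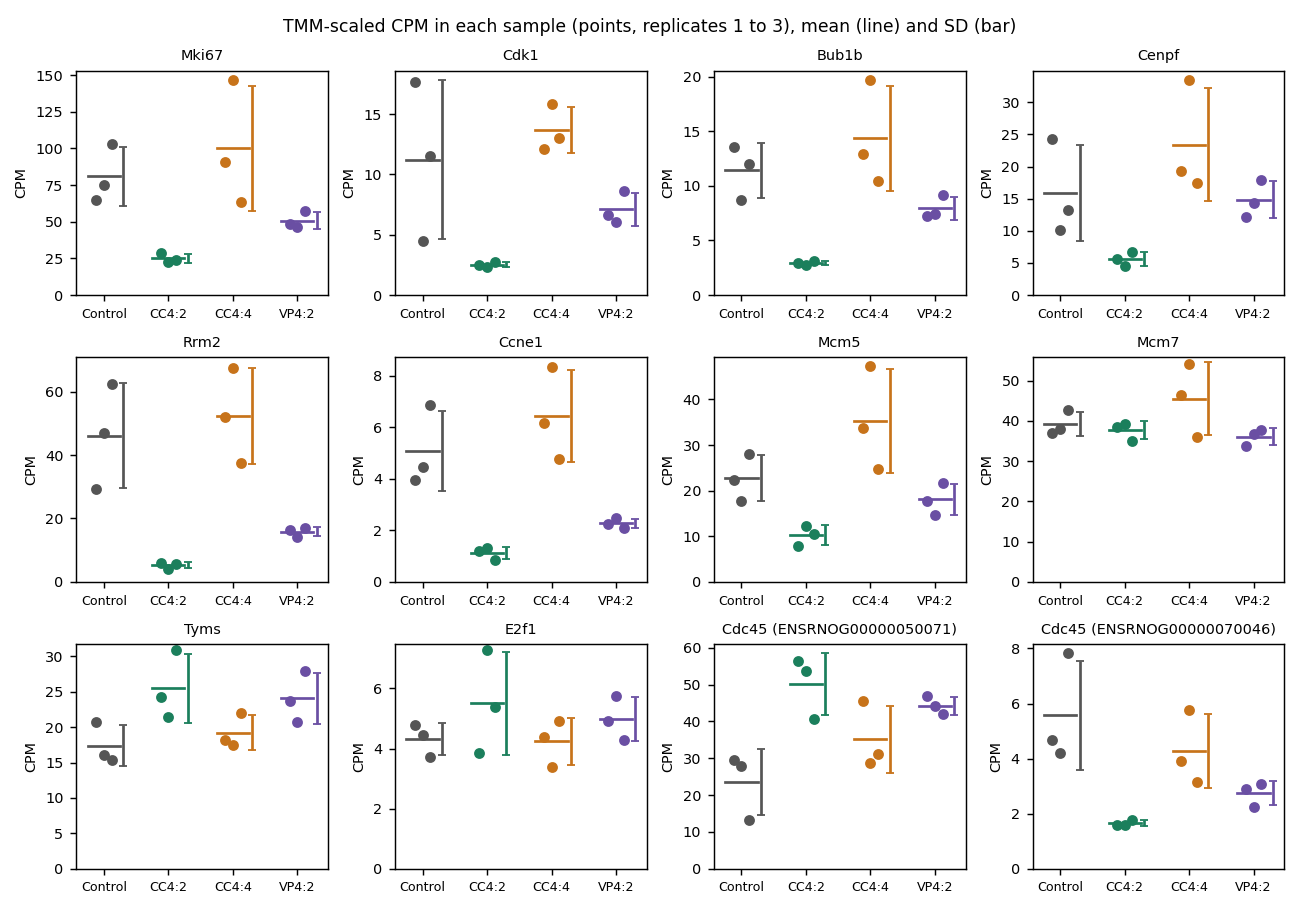
CPM scaled with TMM factors (y axis, from 0) of 12 rows in each sample (points), by group (x axis), with the group mean (line) and SD (bar, n = 3). Mki67, Cdk1, Bub1b, Cenpf, Rrm2 and Ccne1 are lowest in CC4:2, Mcm7 is level at 33.8 to 54.2 CPM, and the 2 Cdc45 rows run in opposite directions.

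Among the replication genes the nucleotide supply split. Rrm2, the subunit of ribonucleotide reductase that is made in S phase, was at 29.2, 46.9 and 62.4 CPM in Control, 5.88, 4.17 and 5.69 in CC4:2, 52.0, 67.6 and 37.5 in CC4:4, and 16.3, 14.1 and 16.9 in VP4:2. CC4:2 was far below every other sample, and this was the largest fall of all 49 rows (-3.13 ± 0.30, edgeR adjusted p = 6.3e-05). Rrm1, the large subunit, fell by 0.65. Tyms, which makes thymidylate, rose instead: it was at 20.7, 16.1 and 15.4 CPM in Control, 24.2, 21.4 and 30.9 in CC4:2, 18.1, 17.5 and 22.02 in CC4:4, and 23.7, 20.7 and 27.9 in VP4:2, with the CC4:2 samples just above all Control samples (0.55 ± 0.19, edgeR adjusted p = 0.033). That call was lost when Control replicate 2 or 3 or CC4:2 replicate 1 or 3 was left out, with edgeR adjusted p up to 0.13.

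The 2 genes grouped as acting at the fork both fell in CC4:2. Pcna, the sliding clamp, was at 64.5, 60.2 and 73.6 CPM in Control, 53.4, 36.1 and 48.2 in CC4:2, 71.4, 90.1 and 67.8 in CC4:4, and 61.6, 58.0 and 66.7 in VP4:2, without overlap between CC4:2 and Control (-0.53 ± 0.16, edgeR adjusted p = 0.024). The call was lost without Control replicate 3 (-0.42, edgeR adjusted p = 0.096) and without CC4:2 replicate 2 (-0.38, edgeR adjusted p = 0.074). Uhrf1, which keeps DNA methylation on the new strand, was at 12.7, 9.68 and 16.1 CPM in Control, 7.09, 7.56 and 6.68 in CC4:2, 21.6, 30.4 and 12.2 in CC4:4, and 11.9, 13.3 and 12.3 in VP4:2, and CC4:4 was the group that stood highest (-0.85 ± 0.29, edgeR adjusted p = 0.035 for CC4:2 against Control). Its call against Control was lost in 5 of the 6 fits that left out a library, the exception being Control replicate 2, with edgeR adjusted p up to 0.14.

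Within the MCM helicase the subunits moved by different amounts, although the protein is a ring of all of them. Mcm5 was at 22.4, 17.8 and 28.0 CPM in Control, 7.89, 12.3 and 10.6 in CC4:2, 33.8, 47.2 and 24.7 in CC4:4, and 17.8, 14.8 and 21.6 in VP4:2, with no overlap between CC4:2 and the others (-1.15 ± 0.27, edgeR adjusted p = 0.0063). Mcm3, Mcm6 and Mcm4 fell by 0.98, 0.76 and 0.67. Mcm2 (-0.58 ± 0.23, edgeR adjusted p = 0.065) did not pass the test, its CC4:2 replicate 2 at 32.7 CPM lying above Control replicate 1 at 31.9. Without that CC4:2 sample it was called (-0.83, edgeR adjusted p = 0.018). Mcm7 was nearly level (-0.06 ± 0.15, edgeR adjusted p = 0.77), from 39.2 ± 3.07 CPM in Control to 37.6 ± 2.25 in CC4:2 (mean ± SD, n = 3). Without Control replicate 3 the call of Mcm6 was lost (-0.59, edgeR adjusted p = 0.060).

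The factors that load and start the helicase showed a similar split. Cdc6, which loads it, was at 2.81, 2.58 and 5.01 CPM in Control, 1.06, 0.733 and 0.731 in CC4:2, 3.93, 5.90 and 2.39 in CC4:4, and 1.54, 1.45 and 1.52 in VP4:2, where CC4:2 was lowest and VP4:2 next without overlap (-2.03 ± 0.40, edgeR adjusted p = 0.0024). Mcm10, which helps to start the fork, was at 5.29, 3.59 and 6.62 CPM in Control, 1.27, 2.37 and 2.72 in CC4:2, 5.63, 5.90 and 3.42 in CC4:4, and 3.01, 3.17 and 3.63 in VP4:2 (-1.28 ± 0.34, edgeR adjusted p = 0.012, lost without Control replicate 3 at edgeR adjusted p = 0.059). Cdt1, the other loading factor, and Gins2, a subunit of the active helicase, overlapped between the groups and were not called, at -0.16 ± 0.32 (edgeR adjusted p = 0.72) and -0.37 ± 0.20 (edgeR adjusted p = 0.17).

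Cdc45, the helicase cofactor, names 2 rows with different identifiers, and they moved in opposite directions. The row ENSRNOG00000070046 was at 4.67, 4.22 and 7.84 CPM in Control, 1.59, 1.58 and 1.78 in CC4:2, 3.93, 5.76 and 3.15 in CC4:4, and 2.91, 2.26 and 3.08 in VP4:2, with CC4:2 lowest, and fell by 1.75 in CC4:2 (edgeR adjusted p = 0.0016). The row ENSRNOG00000050071 was at 29.6, 27.9 and 13.3 CPM in Control, 56.3, 53.7 and 40.6 in CC4:2, 45.5, 28.6 and 31.3 in CC4:4, and 46.8, 44.1 and 41.9 in VP4:2 and rose by 1.09 ± 0.28 (edgeR adjusted p = 0.010). Neither identifier could be matched to the reference table used here, so which row measures the Cdc45 gene was not settled and both are counted.

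At the entry into S phase the E cyclins and E2F1 did not move together. Ccne1, cyclin E1, was at 3.94, 4.45 and 6.87 CPM in Control, 1.22, 1.30 and 0.835 in CC4:2, 6.16, 8.33 and 4.79 in CC4:4, and 2.25, 2.47 and 2.11 in VP4:2, with CC4:2 below all other samples (-2.18 ± 0.31, edgeR adjusted p = 0.00046). Ccne2, cyclin E2, was at 5.74, 5.54 and 5.01 CPM in Control, 3.71, 1.69 and 5.22 in CC4:2, 5.87, 8.67 and 6.57 in CC4:4, and 4.60, 4.24 and 4.38 in VP4:2, and CC4:2 replicate 3 lay among the Control samples (-0.62 ± 0.34, edgeR adjusted p = 0.16). Without that sample it was called (edgeR adjusted p = 0.037). E2f1, the factor at the head of the S phase programme, was at 4.78, 4.45 and 3.72 CPM in Control, 3.87, 7.27 and 5.38 in CC4:2, 4.40, 3.39 and 4.92 in CC4:4, and 4.93, 5.75 and 4.27 in VP4:2, with overlapping groups (0.35 ± 0.26, edgeR adjusted p = 0.31).

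The CC4:2 and CC4:4 conduits were compared next, with the same CC4:2 samples, so the values stand beside those above and do not repeat them independently. Of the 29 mitosis genes 27 were lower in CC4:2 (median -1.69, a level 3.23-fold lower), and of the 20 replication rows 14 were lower and none (0) higher (median -0.96). Of all genes 20.7% were called lower and 18.5% higher, and the median was 0.01. In 28 mitosis genes and 14 replication rows CC4:2 lay below CC4:4 without overlap, against 28% of all genes. The largest differences were again in Kif2c (-2.87 ± 0.37, edgeR adjusted p = 0.00038) and Rrm2 (-3.32 ± 0.30, edgeR adjusted p = 7.8e-05), and the smallest called ones in Cdc20 (-1.09 ± 0.26) and Pcna (-0.74 ± 0.16). Mcm2 and Ccne2 passed here (-0.79 ± 0.23 and -0.99 ± 0.34). Mcm2 was no longer called when replicate 1 or 3 of CC4:2, or replicate 1 or 2 of CC4:4, was omitted (edgeR adjusted p up to 0.10). For Ccne2 the same held for replicates 1 and 2 of CC4:2 and replicates 2 and 3 of CC4:4 (edgeR adjusted p up to 0.13). Mcm10 (-1.23 ± 0.34) was not called with CC4:2 replicate 1, CC4:4 replicate 1 or CC4:4 replicate 2 omitted (edgeR adjusted p up to 0.065). Anln (-0.89 ± 0.45), Foxm1 (1.12 ± 1.32), Tyms (0.41 ± 0.18), Mcm7 (-0.28 ± 0.15), Gins2 (-0.43 ± 0.20), Cdt1 (-0.73 ± 0.32), E2f1 (0.38 ± 0.26) and the Cdc45 row ENSRNOG00000050071 (0.52 ± 0.28) did not pass, with edgeR adjusted p of 0.09 or more. Cdt1 was called without CC4:2 replicate 2 (-1.08) or CC4:4 replicate 3 (-0.96), and Mcm7 without the latter (-0.43). Without CC4:4 replicate 2, the highest sample of most genes, 27 mitosis genes and 11 replication rows were still called lower.

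CC4:4 and Control were not told apart in these genes. None (0) of the 49 rows passed, where edgeR also called 0 of all genes (0%), with 830 of them at an unadjusted p under 0.05, while limma-voom called 0 genes and DESeq2 called 10, none (0) of them a member. The medians were 0.31 for mitosis and 0.23 for replication, and 45 of 49 rows had a positive sign. Only Rrm1 and Ccne2 were higher in CC4:4 without overlap, at 0.28 ± 0.14 and 0.37 ± 0.33, where 3.12% of all genes did so and 4.3% were lower. Apart from Foxm1 (-0.97 ± 1.34), the largest differences were those of Uhrf1 (0.74 ± 0.29, edgeR adjusted p = 0.93) and Mcm5 (0.63 ± 0.26, edgeR adjusted p = 0.93). Without Control replicate 1, 295 genes were called, and among the members Anln was higher in CC4:4 by 1.27 (edgeR adjusted p = 0.023).

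VP4:2 against CC4:2 asked what loading with verteporfin changed in the same kind of conduit. Of the 29 mitosis genes 9 were higher in VP4:2 and none (0) lower, with a median of 0.93, a level 1.91-fold higher. Of the 20 replication rows 2 were higher, with a median of 0.38. These are 31% and 10% of the rows, beside 6.23% of all genes called (5.23% higher and 0.999% lower) and a median of -0.03. Without overlap, 25 mitosis genes and 11 replication rows were higher in VP4:2, against 17.5% of all genes.

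The 9 mitosis genes that rose were the cyclins Ccna2, Ccnb1 and Ccnb2, the checkpoint gene Bub1b, the motors Kif11 and Kif2c, the kinetochore gene Cenpf, and the cytokinesis genes Prc1 and Ect2. Kif2c had the largest difference (1.72 ± 0.36, edgeR adjusted p = 0.019) and Prc1 the smallest (0.93 ± 0.24, edgeR adjusted p = 0.045). Bub1b, at 7.29 to 9.14 CPM in VP4:2 against 2.76 to 3.08 in CC4:2, had the smallest p (1.44 ± 0.26, edgeR adjusted p = 0.0075). Ccna2 rose by 1.41 ± 0.25 (edgeR adjusted p = 0.0077), and Ccnb1 was at the edge of the threshold (1.16 ± 0.31, edgeR adjusted p = 0.0495). In the replication class Rrm2 rose by 1.59 ± 0.29 (edgeR adjusted p = 0.0087) and Rrm1 by 0.56 ± 0.14 (edgeR adjusted p = 0.045). Rrm1 and Rrm2 encode the 2 subunits of ribonucleotide reductase.

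Several mitosis genes were higher without overlap and did not pass. Mki67 differed by 1.02 ± 0.28, edgeR adjusted p = 0.055, Top2a by 0.89 ± 0.26, edgeR adjusted p = 0.074 and Cdk1 by 1.49 ± 0.40, edgeR adjusted p = 0.051. The smallest differences of the class were those of Cdc20 (0.26 ± 0.25, edgeR adjusted p = 0.58) and Ndc80 (0.44 ± 0.23, edgeR adjusted p = 0.29), apart from Foxm1 (-0.25 ± 1.26). Aurkb overlapped, since VP4:2 ran from 4.22 to 10.2 CPM and CC4:2 reached 4.70 (1.17 ± 0.45, edgeR adjusted p = 0.15). Of the replication rows, Mcm7, Tyms, Cdt1, E2f1 and the Cdc45 row ENSRNOG00000050071 had slightly negative values, from -0.02 to -0.18, and none passed. Apart from Rrm1 and Rrm2, the remaining replication rows lay between 0.07 (Mcm2) and 1.02 (Ccne1) and did not pass.

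The number of calls in this comparison depended on single libraries. With any 1 of the 6 samples left out, 2 to 4 mitosis genes and 1 replication row remained called, and the median of the mitosis genes stayed between 0.84 and 1.03. Ccna2, Bub1b and Rrm2 were called in each of those fits, and Rrm1 in none (0). In a fit of the NovaSeq samples alone, replicates 1 and 2 of all 4 groups, none (0) of the members passed, although the median of the mitosis genes was 0.90. The deviations of same-numbered CC4:2 and VP4:2 samples correlated at 0.12, 0.28 and 0.43, and those of CC4:2 replicate 2 and VP4:2 replicate 1 at 0.18. The labels give no such pairing, and replicate 3 was the DNBSEQ sample in each group. A fit with the replicate number as a block is therefore given only as an alternative. With that block 7 mitosis genes and 1 replication row were called over all 12 samples, since Ccnb1, Cenpf and Rrm1 were lost (edgeR adjusted p = 0.075, 0.077 and 0.085), and 17 and 4 in a fit of the 6 samples alone.

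VP4:2 was also set against Control, with which the CC4:2 comparison shares its Control samples. All 29 mitosis genes had a negative sign (median -0.55), and 3 passed: Ndc80 (-0.90 ± 0.23, edgeR adjusted p = 0.024), Aurka (-0.87 ± 0.25, edgeR adjusted p = 0.034) and Kif23 (-0.83 ± 0.26, edgeR adjusted p = 0.048). Of the replication rows 5 were lower and 1 higher (median -0.32). Of all genes 9.57% were called lower and 9.3% higher, with a median of -0.04. The replication rows that were lower were Rrm2 (-1.55 ± 0.28, edgeR adjusted p = 0.0072), Cdc6 (-1.20 ± 0.38, edgeR adjusted p = 0.0496), Ccne1 (-1.15 ± 0.30, edgeR adjusted p = 0.025), the Cdc45 row ENSRNOG00000070046 (-1.02 ± 0.31) and Mcm4 (-0.46 ± 0.14, edgeR adjusted p = 0.048). The other Cdc45 row was higher (0.90 ± 0.28). Without overlap, 10 mitosis genes and 9 replication rows were lower and 1 was higher, against 18.8% and 19.8% of all genes. Only Rrm2 kept its call in each fit that left out 1 of the 6 samples (edgeR adjusted p up to 0.035). Without Control replicate 3, or VP4:2 replicate 1 or 2, no mitosis gene (0) and 1 replication row were called, and without Control replicate 2 as many as 8 mitosis genes were.

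**Figure D4:**
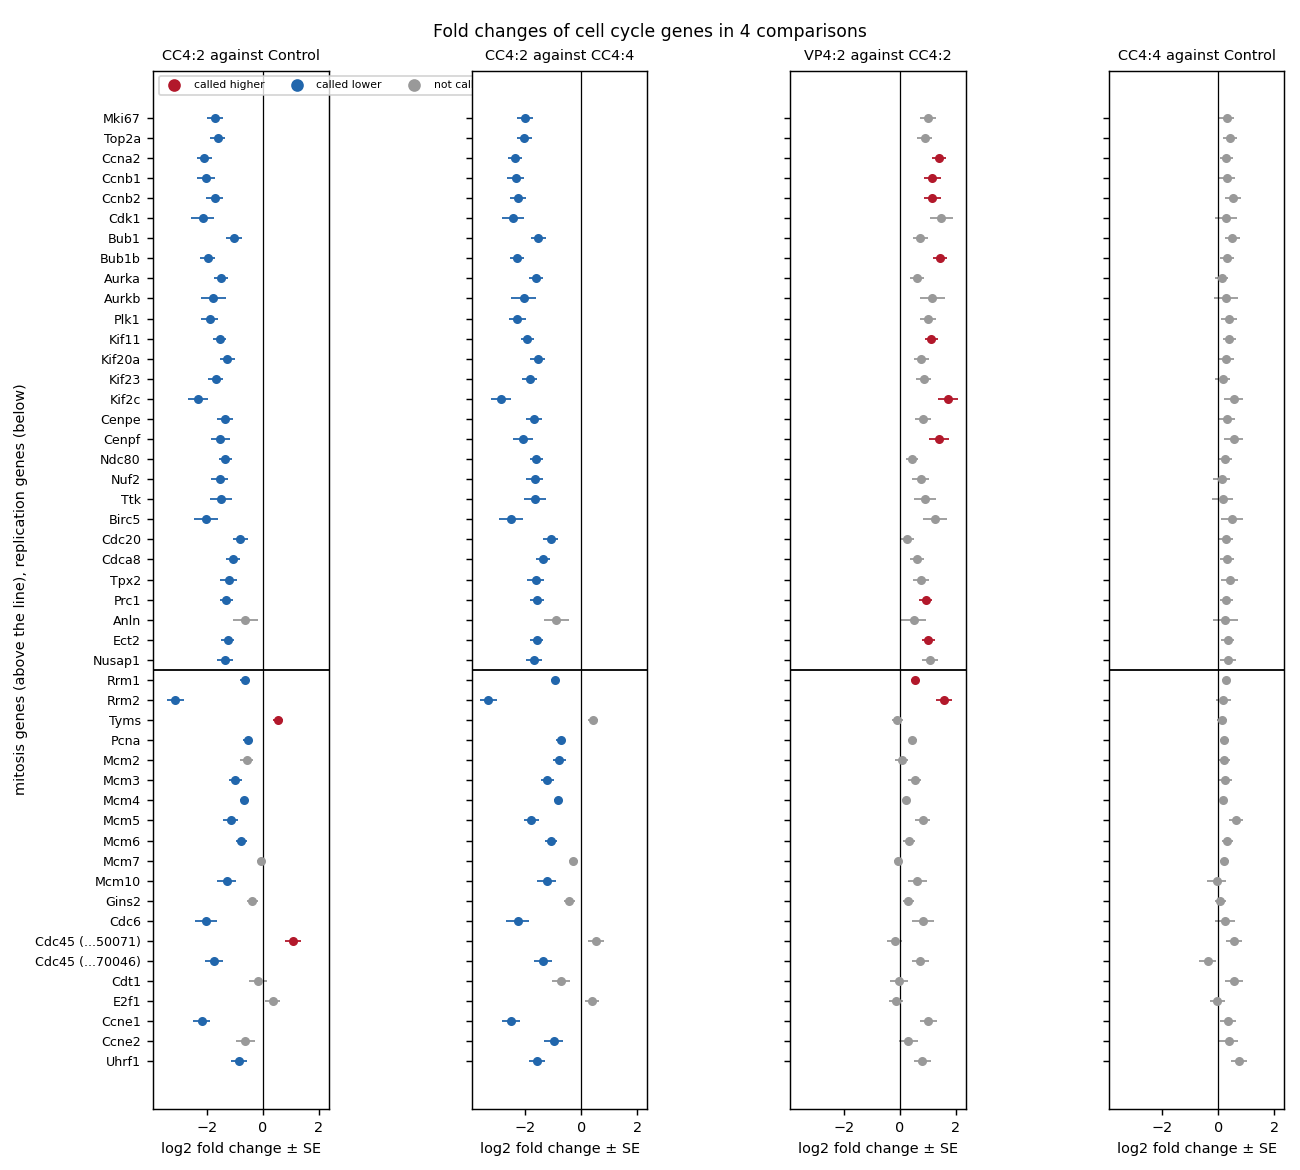
Log2 fold change ± SE (x axis) of 48 rows in 4 comparisons (panels, 3 samples per group), coloured by edgeR call, with Foxm1 left out because of its large SE. Nearly all mitosis rows lie left of 0 in the panels of CC4:2 against Control and CC4:4, right of 0 for VP4:2 against CC4:2, and slightly right of 0 with no call for CC4:4 against Control.

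Other cell cycle genes outside the 48 were read in 5 lists. Of 41 further mitosis genes 31 fell in CC4:2 against Control and none (0) rose (median -1.28), and 25 to 32 fell with any 1 of the 6 samples left out. Those of smallest p were Cenpa, the centromere histone (-2.63 ± 0.28), Ube2c, which marks cyclins for destruction (-2.42 ± 0.32), and Cdca5, sororin (-1.98 ± 0.29). Of 41 further replication genes 11 fell and 4 rose (median -0.40). These are 26.8% and 9.76% of the list, against 23.2% and 20.3% of all genes. Dbf4, which activates the origin kinase, fell by 2.07, Tk1, thymidine kinase, by 1.62 and Fen1, which trims Okazaki fragments, by 1.09. The 4 that rose were Prim2, Pold1, Pold2 and Rfc1 (0.73, 0.57, 0.56 and 0.34), subunits of primase, of polymerase delta and of the clamp loader. Pold1 and Rfc1 each lost the call in 4 of the 6 fits with 1 sample left out (edgeR adjusted p up to 0.15 and 0.13).

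The upstream regulators did not fall as a block. Ccnd1, cyclin D1, which answers to growth signals in G1, was at 38.4, 27.1 and 32.3 CPM in Control, 79.1, 102 and 73.3 in CC4:2, 41.2, 37.1 and 44.5 in CC4:4, and 78.9, 85.2 and 83.0 in VP4:2. Both CC4:2 and VP4:2 lay above all Control and CC4:4 samples (1.38 ± 0.16 for CC4:2 against Control, edgeR adjusted p = 0.00015). Of 7 G1 cyclins and kinases it was the 1 that rose, and Cdc25a, a phosphatase that activates CDKs, fell by 1.15. Of 8 CDK inhibitor genes 3 fell and none (0) rose: Cdkn1a, p21, by 1.89, Cdkn2a by 2.31 and Cdkn3 by 2.09. The list did not lean down as a whole, since 4 genes had a positive and 4 a negative sign (median 0.11). Cdkn1a was at 41.2, 17.0 and 34.8 CPM in Control, 5.82, 12.2 and 7.05 in CC4:2, 17.0, 35.1 and 22.2 in CC4:4, and 27.2, 20.1 and 21.8 in VP4:2, with CC4:2 below all other samples. Cdkn2a and Cdkn3 overlapped between the groups, and Cdkn2a stood at 19.1 CPM in Control replicate 1 against 2.73 and 1.45 in the other Control samples. Without Control replicate 1 neither was called, Cdkn2a at -0.40 (edgeR adjusted p = 0.47) and Cdkn3 at -1.88 (edgeR adjusted p = 0.072), while Cdkn1a kept its call with any 1 sample left out (edgeR adjusted p up to 0.014). Cdkn2a was not called either without CC4:2 replicate 1 or 3 (edgeR adjusted p = 0.11 and 0.091), nor Cdkn3 without Control replicate 3 or CC4:2 replicate 2 or 3 (edgeR adjusted p up to 0.095). Of 18 pocket proteins, E2F and MYB factors 9 fell (50%) and 2 rose (11.1%). The CDK inhibitor genes that fell were 37.5% of their list, and 14.3% of the G1 list changed in each direction. Of all genes 23.2% fell and 20.3% rose in this comparison. Mybl2, a partner of the complex that drives mitosis genes, fell by 1.93 and E2f2 by 2.81, while Tfdp2 rose by 1.50 and Lin52 by 0.58.

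Against CC4:4 the same lists gave 36 of 41 further mitosis genes (87.8%) lower and none (0) higher in CC4:2 (median -1.55). Of 41 further replication genes 17 were lower (41.5%) and 1 higher (2.44%), against 20.7% and 18.5% of all genes. The higher 1 was Prim2 (0.57, called in 1 of the 6 fits with 1 sample left out), and Ccnd1 was higher by 1.05. In VP4:2 against CC4:2, 7 of 41 further mitosis genes (17.1%) rose (median 0.75), among them Cenpa by 1.43 and Arhgap11a by 0.96. Of the 41 further replication genes 3 rose (7.32%, against 5.23% of all genes), Tk1, Dbf4 and Gmnn, by 1.26, 1.17 and 1.23. With any 1 sample left out 0 to 6 of the further mitosis genes were called, and Tk1 was called each time. Cdkn1a was called as well (1.46 ± 0.38, edgeR adjusted p = 0.048), but lost the call in 5 of the 6 fits with 1 sample left out (edgeR adjusted p up to 0.15), and none (0) of the G1 cyclins or of the pocket protein list passed. In VP4:2 against Control, 5 of 41 further mitosis genes were lower (12.2%, against 9.57% of all genes; 0 to 5 genes with 1 sample left out) and Ccnd1 was higher by 1.34.

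**Figure D5:**
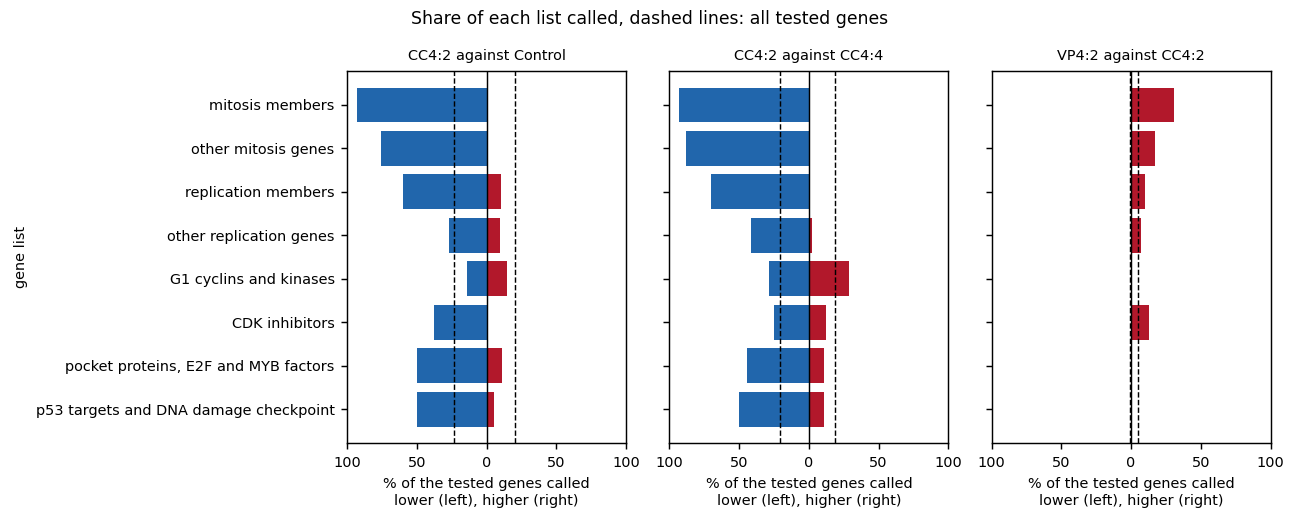
Share of each gene list called lower (bars to the left) and higher (bars to the right) in 3 comparisons, in % of the tested genes, with dashed lines at the shares of all 15712 genes. The mitosis members reach 93.1% lower in CC4:2 against Control and CC4:4, and 31% higher in VP4:2 against CC4:2, where all genes are at 5.23% higher.

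The summed markers of macrophages, T and NK cells, B and plasma cells and neutrophils were lower in every CC4:2 sample than in any Control or CC4:4 sample. The mast cell sum was higher, at 43.2 to 68.1 CPM against 18 to 42.4 in Control and 17.1 to 37.1 in CC4:4. Of the 6 mast cell genes 5 had a positive sign against Control. Kit overlapped, at 17.1, 10.8 and 12 CPM in Control and 13.3, 18.2 and 16.9 in CC4:2. Hdc had the negative sign, at 5, 12.4 and 1.86 CPM in Control and 2.75, 1.64 and 4.23 in CC4:2. The summed level of 14 macrophage genes was 5950 to 12200 CPM in Control, 1800 to 2350 in CC4:2, 5240 to 6110 in CC4:4 and 4490 to 6820 in VP4:2. Lyz2 alone was at 3190, 8950 and 4970 CPM in Control and 745, 538 and 810 in CC4:2. Of the 14 genes 10 fell in CC4:2 against Control and 4 were not called, and 9 rose in VP4:2 against CC4:2. Against Control 13 had a negative sign. Cd163 had a positive one (0.18), at 52.2, 157 and 73.2 CPM in Control and 72.5, 114 and 132 in CC4:2. The 10 T and NK cell genes summed to 274 to 430 CPM in Control, 17.9 to 58 in CC4:2, 237 to 377 in CC4:4 and 85.1 to 106 in VP4:2, and all 10 fell in CC4:2 against Control. The 12 B and plasma cell genes, at 1080 to 8290 CPM in Control and 122 to 319 in CC4:2, all fell, as did the 6 tested neutrophil genes (266 to 535 and 8.80 to 13.6 CPM). Neutrophil genes stayed low in VP4:2 at 11.3 to 15.8 CPM, and none (0) of the 6 passed against CC4:2. Markers below 1 CPM in every CC4:2 sample were the neutrophil genes S100a8 (0.226 to 0.953 CPM, against 27.4 to 86.2 in Control), Mmp8 (0.104 to 0.169, against 9.13 to 20.8) and Camp (0 to 0.212, against 1.64 to 2.02) and the plasma cell gene Tnfrsf17 (0 to 0.731, against 4.50 to 43.6). Ngp was below 1 CPM in Control as well (0 to 0.156 CPM). Myelin genes ran the other way, and all 10 rose in CC4:2 against Control, as did 7 of 8 further Schwann cell genes, 6 of 6 adipocyte, 4 of 8 nerve fibroblast and 3 of 6 mast cell genes. In that comparison 20.3% of all genes were called higher and 23.2% lower. The 2 of 7 endothelial genes that rose (28.6%) were near that share. In VP4:2 against CC4:2, 5.23% of all genes were called higher. The 4 skeletal muscle genes varied from sample to sample, from 3.43 CPM in Control replicate 1 to 9340 in CC4:2 replicate 2, and none (0) passed. The part of these cell types in the results above was not tested.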

How the data were processed

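The authors deposited expected counts per gene, estimates that need not be whole and carry no recorded normalization. Per the submitters' processing notes HISAT2, StringTie, RSEM and DESeq2 were used. Their versions and roles, the genome build and the annotation are not given in the sources used here. Per the labels' protocols, libraries were stranded and made from poly(A) RNA, and per the labels each group had its replicates 1 and 2 sequenced with NovaSeq X Plus and its replicate 3 with DNBSEQ-T7, the same split in all groups. The 12 deposited files held the same table, so 1 was read and 11 were not used.

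Counts were rounded to whole numbers, scaled with TMM, filtered with filterByExpr and tested in edgeR 4.0.16 by quasi-likelihood (limma 3.58.1, R 4.3.3). The fit held all 12 samples, 1 coefficient per group, no covariate and 8 residual degrees of freedom, and 5 pairs of groups were compared. The test was also tried on simulated counts, drawn with means and dispersions estimated from these data, and the outcome is not given here. The SE is the size of the log2 fold change over the square root of the F statistic. The mean log2 CPM of a class used a prior count of 2. Replicates differed by more than sampling noise (chi-square per degree of freedom of 47.3 or more), and depth limits precision for rows with few counts.

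The members and lists were chosen with earlier results of these data known. All members were described by class and role, a fixed part of them with values in every sample, together with the member of largest and of smallest change of each class and those not called. From the other lists, up to 3 genes of smallest p and those that ran against the majority were named. In addition Arhgap11a, Cdkn1a in VP4:2 and Incenp and the marker genes S100a8, Mmp8, Camp, Ngp and Tnfrsf17 were chosen after their values were seen. A DNA damage checkpoint and p53 target list is described in the closing section. Promoters were taken from RefSeq (GRCr8), the first listed start of each gene, and matched by symbol.

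Same-numbered samples did not deviate together in general, with correlations from -0.40 to 0.43 and 7 of 18 over 0.1. In CC4:2 and VP4:2 the 3 pairs were at 0.12, 0.28 and 0.43, so a fit with the replicate number as a block is given there as an alternative. That pairing comes from the data and not from the labels, and CC4:2 replicate 2 and VP4:2 replicate 1 were at 0.18. The alternatives tried were other scalings (RLE, upper quartile, total counts, TMM without immunoglobulin genes), other filters, DESeq2 1.42.0, limma-voom, the replicate block, a platform term, the NovaSeq samples alone, the 6 samples compared alone, and each sample left out. The block with the 6 samples alone, and leaving out each sample for the other gene lists, were added after the data were seen.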

Additional observations from a re-analysis of the deposited data

How the results depend on the processing

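The direction of the class medians held in every setting tried for each comparison. The fall of the mitosis genes in CC4:2 kept 19 to 27 calls against Control and 27 or 28 against CC4:4. Of the 41 members called in CC4:2 against Control 25 were called in every setting, and of the 41 against CC4:4 38 were. Of the 11 in VP4:2 against CC4:2 and the 9 in VP4:2 against Control none (0) were. Scaling by total counts moved the median of all genes from -0.05 to 0.16 (CC4:2 against Control), from 0.01 to 0.22 (CC4:2 against CC4:4) and from -0.04 to 0.20 (VP4:2 against Control). The replication medians then became -0.45, -0.72 and -0.08, and no mitosis gene (0) was called in VP4:2 against Control. Causes of these changes were not tested, and the fits that left samples out also had fewer samples.

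The replication rows called in VP4:2 against CC4:2 numbered 1 with RLE, upper quartile scaling, no filter, the replicate block and the platform term. The mitosis genes called numbered 16 with DESeq2 (1861 genes in all), 4 with limma-voom (replication median 0.45), 5 with the platform term and 14 with the 6 samples alone. The 6 samples with the replicate block gave 1920 genes, 17 mitosis and 4 replication calls and a replication median of 0.45. The NovaSeq samples alone gave 202 genes, 0 mitosis and 0 replication calls and a replication median of 0.48. For VP4:2 against Control, 3 replication rows were called with no filter, limma-voom, the replicate block and the platform term, and 8 mitosis genes with DESeq2. The NovaSeq samples alone gave 19 genes and 0 calls in both classes there, and the 6 samples alone 1869 genes, 1 mitosis and 2 replication calls. In CC4:2 against Control, the NovaSeq samples gave 3220 genes and 6 replication calls, and the 6 samples alone 4363 genes. In CC4:2 against CC4:4 the NovaSeq samples gave 3253 genes and a mitosis median of -2.01. DESeq2 called 10 genes in CC4:4 against Control. With the replicate block 2 mitosis genes in place of 3 were called in VP4:2 against Control, and the number of calls moved by under 1.5 times in the cases not given here, and 5 of 12 samples correlated best with a sample of their own number.

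With each sample left out in turn, genes called ranged from 0 to 295 in CC4:4 against Control, where mitosis calls ranged from 0 to 1, from 466 to 746 in VP4:2 against CC4:2, and from 1166 to 4294 in VP4:2 against Control. Replication calls in CC4:2 against Control ranged from 9 to 13. For VP4:2 against CC4:2 mitosis calls ranged from 2 to 4, replication calls stayed at 1, and the replication median ranged from 0.35 to 0.52. In VP4:2 against Control mitosis calls ranged from 0 to 8, replication calls from 1 to 7, and the replication median from -0.38 to -0.18. Anln reversed in VP4:2 against Control without Control replicate 1 (0.89, edgeR adjusted p = 0.0075, against -0.13 with all samples), and its values with 1 sample left out ranged from -0.42 to 0.89.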

Other observations

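Of 18 DNA damage checkpoint and p53 target genes 9 fell (50%) and 1 rose (5.56%) in CC4:2 against Control, with a median of -0.52. Of all genes 23.2% fell and 20.3% rose there. Those of smallest p were Btg2, which slows the cycle (-1.52 ± 0.23), Mdm2, the ligase that degrades p53 (-1.34 ± 0.20), and the checkpoint kinase gene Chek2 (-1.41 ± 0.25). Phlda3 was the 1 that rose, by 1.44. Against CC4:4, 9 were lower and 2 higher in CC4:2, which is 50% and 11.1% beside 20.7% and 18.5% of all genes. The higher ones were Phlda3 and Sesn1, by 1.35 and 0.51, and Sesn1 was called in 1 of the 6 fits with 1 sample left out. In VP4:2 against CC4:2 none (0) passed with edgeR, and in VP4:2 against Control 4 were lower (22.2%, against 9.57% of all genes). Btg2 was at -1.47 and Mdm2 at -0.84 there, the latter called in 1 of the 6 fits with 1 sample left out.

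The spread between replicates of the mitosis genes differed between groups. The median coefficient of variation over the 29 genes was 30.6% in Control, 28.1% in CC4:4, 19.8% in CC4:2 and 13% in VP4:2, and over the 20 replication rows 20%, 24.9%, 19.2% and 8.78% in the same order. No test was run on these values.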
